A study of Homo sapiens with 267 samples.

Results

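The mRNA levels of 10 enzymes of glycolysis were followed through cDNA libraries of K562, an established human myelogenous leukaemia line that grows in suspension. The enzymes were GPI, ALDOA, TPI1, GAPDH, PGK1, PGAM1, ENO1, PKM, LDHA and LDHB, chosen by symbol, and each matched 1 of the 63677 genes of the count table by its Ensembl identifier. All 10 were among the 11754 genes with more than 2 reads in at least 20% of the libraries kept in at least 1 run. The study stained K562 cells with dyes, captured them with or without fixation in DSP, a reversible cross-linker, in the sites of the C1 microfluidic system and sequenced their cDNA. The labels divide the libraries into 3 runs, and give neither the fixation nor the storage time. They do not mark empty sites or the bulk samples, which the study sequenced together with the single cells. The values below thus pool fresh with fixed cells and may include bulk samples and empty sites.

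In the Hoechst run, all 96 libraries were untreated and stained with Hoechst dye and propidium iodide, and the passages were labelled 90 to 92. In the other runs the passages were labelled 20 to 22 and the cells carried a CellTracker dye with a fixable red dead cell stain. In the benzene run, 36 libraries with counts were untreated with CellTracker Green CMFDA, and 35 were labelled with CellTracker Orange CMRA and 10 mM benzene for 3 h. In the imatinib run, 51 libraries were untreated with CellTracker Green CMFDA, and 45 were labelled with CellTracker Orange CMRA and imatinib, an inhibitor of the BCR-ABL kinase of these cells, at 1 µM for 1 h. All groups were grown in RPMI 1640 with glutamine and serum. Stain and drug go together within each CellTracker run and cannot be told apart, and each run is 1 culture batch, so libraries are not replicates of a condition. By the study's methods, the Hoechst run was also sequenced on another instrument with longer reads, and dead cells were excluded from sequencing in the CellTracker runs only. The study also used a distinct lot of K562 for the Hoechst run. Its fixed cells were stored for longer and made up a larger part of the captured cells than in the CellTracker runs.

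Glycolysis splits glucose into pyruvate in the cytosol and yields ATP without oxygen. GPI converts glucose 6-phosphate to fructose 6-phosphate, ALDOA cleaves fructose 1,6-bisphosphate, and TPI1 interconverts the resulting trioses. GAPDH oxidises glyceraldehyde 3-phosphate, PGK1 and PKM each form ATP, and PGAM1 and ENO1 act between them. LDHA and LDHB encode the M and H subunits of lactate dehydrogenase, which reduces pyruvate to lactate and regenerates NAD+. Under low oxygen the transcription factor HIF-1 binds the core ACGTG or GCGTG in hypoxia response elements of many of these genes, LDHA among them, and MYC binds the E-box CACGTG. K562 cells, like many leukaemia lines, use much glucose.

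The promoters of LDHA and LDHB are shown because the results turn mostly on these lactate dehydrogenase subunits, which differed between runs in opposite directions. That of PGK1 is shown because it also holds these cores. The level of PGK1 differed less than that of LDHA between the Hoechst run and either Green group. It differed more between the 2 Green groups, by 0.97 against 0.63 on the log2 scale, and between the stains of the imatinib run. Each sequence is the 250 bases before the start of the canonical transcript on GRCh37, read 5′ to 3′ on the strand of the gene. Capitals mark each match to the HIF-1 cores or the E-box named above, on either strand, so that reverse complements are also in capitals.
LDHA, plus strand, chr11:18415860-18416109: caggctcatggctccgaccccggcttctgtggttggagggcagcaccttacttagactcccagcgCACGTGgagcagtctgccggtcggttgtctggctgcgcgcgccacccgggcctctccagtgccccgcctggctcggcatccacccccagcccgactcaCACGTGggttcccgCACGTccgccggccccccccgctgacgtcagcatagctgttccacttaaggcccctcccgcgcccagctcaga
LDHB, minus strand, chr12:21810777-21811026: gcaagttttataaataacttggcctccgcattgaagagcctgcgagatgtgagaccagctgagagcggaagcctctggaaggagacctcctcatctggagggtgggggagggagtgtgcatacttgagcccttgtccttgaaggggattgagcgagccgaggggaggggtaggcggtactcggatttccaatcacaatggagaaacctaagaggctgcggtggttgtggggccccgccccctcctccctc
PGK1, plus strand, chrX:77359495-77359744: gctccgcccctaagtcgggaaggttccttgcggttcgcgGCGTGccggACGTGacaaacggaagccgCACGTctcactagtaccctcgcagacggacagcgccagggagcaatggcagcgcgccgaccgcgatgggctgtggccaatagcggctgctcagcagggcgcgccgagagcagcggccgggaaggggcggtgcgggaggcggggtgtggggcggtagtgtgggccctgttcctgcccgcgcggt
The LDHA window holds CACGTG at 2 places, starting 185 and 87 bases before the transcript start, and each of them contains ACGTG on both strands. A further ACGTG lies on the reverse strand from base 73. The LDHB window holds none of the 3 motifs. In the PGK1 window there are 2 matches to ACGTG, 1 on each strand, and 1 to GCGTG. Of the 10 enzymes, 5 have ACGTG in this window, 5 have GCGTG and 1, LDHA, has CACGTG. Among 19862 promoters of protein-coding genes of the same length, 20.5% hold ACGTG, 40.4% hold GCGTG and 7.88% hold CACGTG. These matches describe the letters of the window and are not evidence of binding.

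Reads on genes numbered 50358 to 2043351 per library, and the 242 of 263 libraries in which the top 500 genes took at most 70% of these reads were kept. These were 82 of the Hoechst run, 31 Green and 34 Orange of the benzene run, and 50 Green and 45 Orange of the imatinib run. The median number of genes with more than 2 reads was 7410 in the Hoechst run, 5905 in the benzene run and 8022 in the imatinib run, and 12 libraries kept had over 10000 such genes. The 8 markers of K562 cells GATA1, TAL1, KLF1, HBZ, HBE1, HBG1, HBG2 and PRAME had more than 2 reads in 186 to 242 of the 242 libraries. Of the 12 markers of other cells, MS4A1 and CD79A were in 0 libraries and CD3E and CD2 in 1, while CD3D was in 121, KRT19 in 174 and EPCAM in 202. The summed level of those 12 had a median of 223 CPM in the Hoechst run and of 91.4 to 126 CPM in the other groups. Its part in the results was not tested. CPM here is reads per 1000000 reads on genes.

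ENO1 (chromosome 1, 8921059 to 8939249, minus strand) and ALDOA (chromosome 16, 30075485 to 30081778, plus strand) were the most abundant of the 10. ALDOA had a median of 4297 CPM in the Hoechst run, with libraries from 693 to 17552 CPM. Its medians in the CellTracker groups were 3932 to 4595 CPM, so that all 5 groups lay close together and their ranges overlapped almost wholly. ENO1, which forms phosphoenolpyruvate, had a median of 2580 CPM in the Hoechst run, with libraries from 308 to 15078 CPM. In the benzene run its medians were 5246 CPM in Green and 5653 CPM in Orange, and in the imatinib run 6797 and 7153 CPM. Each CellTracker median thus lay above the Hoechst median, but within the range of the Hoechst libraries. The highest ENO1 and ALDOA values of the Hoechst run were both in library 91, which the labels do not mark as a single cell or a bulk sample.

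GAPDH (chromosome 12, 6643678 to 6647540, plus strand) had medians of 1488 CPM in the Hoechst run, 1673 and 2477 CPM in Green and Orange of the benzene run, and 3096 and 3281 CPM in Green and Orange of the imatinib run. Its lowest library, at 6.99 CPM, belonged to the Hoechst run, in which the highest was at 6032 CPM. TPI1 (chromosome 12, 6976283 to 6980112, plus strand) had medians of 1427 CPM in the Hoechst run, 2365 and 2048 CPM in the benzene run, and 2936 and 2986 CPM in the imatinib run. Both genes were thus lowest in the Hoechst run and highest in the imatinib run. GPI (chromosome 19, 34850385 to 34893318, plus strand) had medians of 653, 768 and 731 CPM in the Hoechst, benzene Green and benzene Orange libraries, against 1552 and 1900 CPM in the imatinib run. In imatinib Green its lowest library had 459 CPM, while the lowest were at 31.1 CPM in the Hoechst run and 127 CPM in benzene Green.

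PGK1 (chromosome X, 77166236 to 77384792, plus strand), PKM (chromosome 15, 72491370 to 72524160, minus strand) and PGAM1 (chromosome 10, 99185948 to 99193201, plus strand) had the lowest levels per kilobase of transcript. PGK1 medians ran from 392 CPM in the Hoechst run to 606 CPM in imatinib Green. Its libraries spanned 34.7 to 3064 CPM in the Hoechst run and 3.85 to 1581 CPM in benzene Green. PKM, whose row pools the M1 and M2 splice forms, had medians of 309 CPM in the Hoechst run, 256 and 177 CPM in benzene Green and Orange, and 359 and 452 CPM in imatinib Green and Orange. PGAM1 medians were between 89.3 and 185 CPM. It was the only member that often dropped out, with more than 2 reads in 76 of 82 Hoechst libraries, 28 of 31 and 31 of 34 in the benzene run, and 49 of 50 and 44 of 45 in the imatinib run. PKM was at 0 in 1 Orange library of the benzene run, and the other 8 had more than 2 reads in all 242 libraries.

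**Figure D1:**
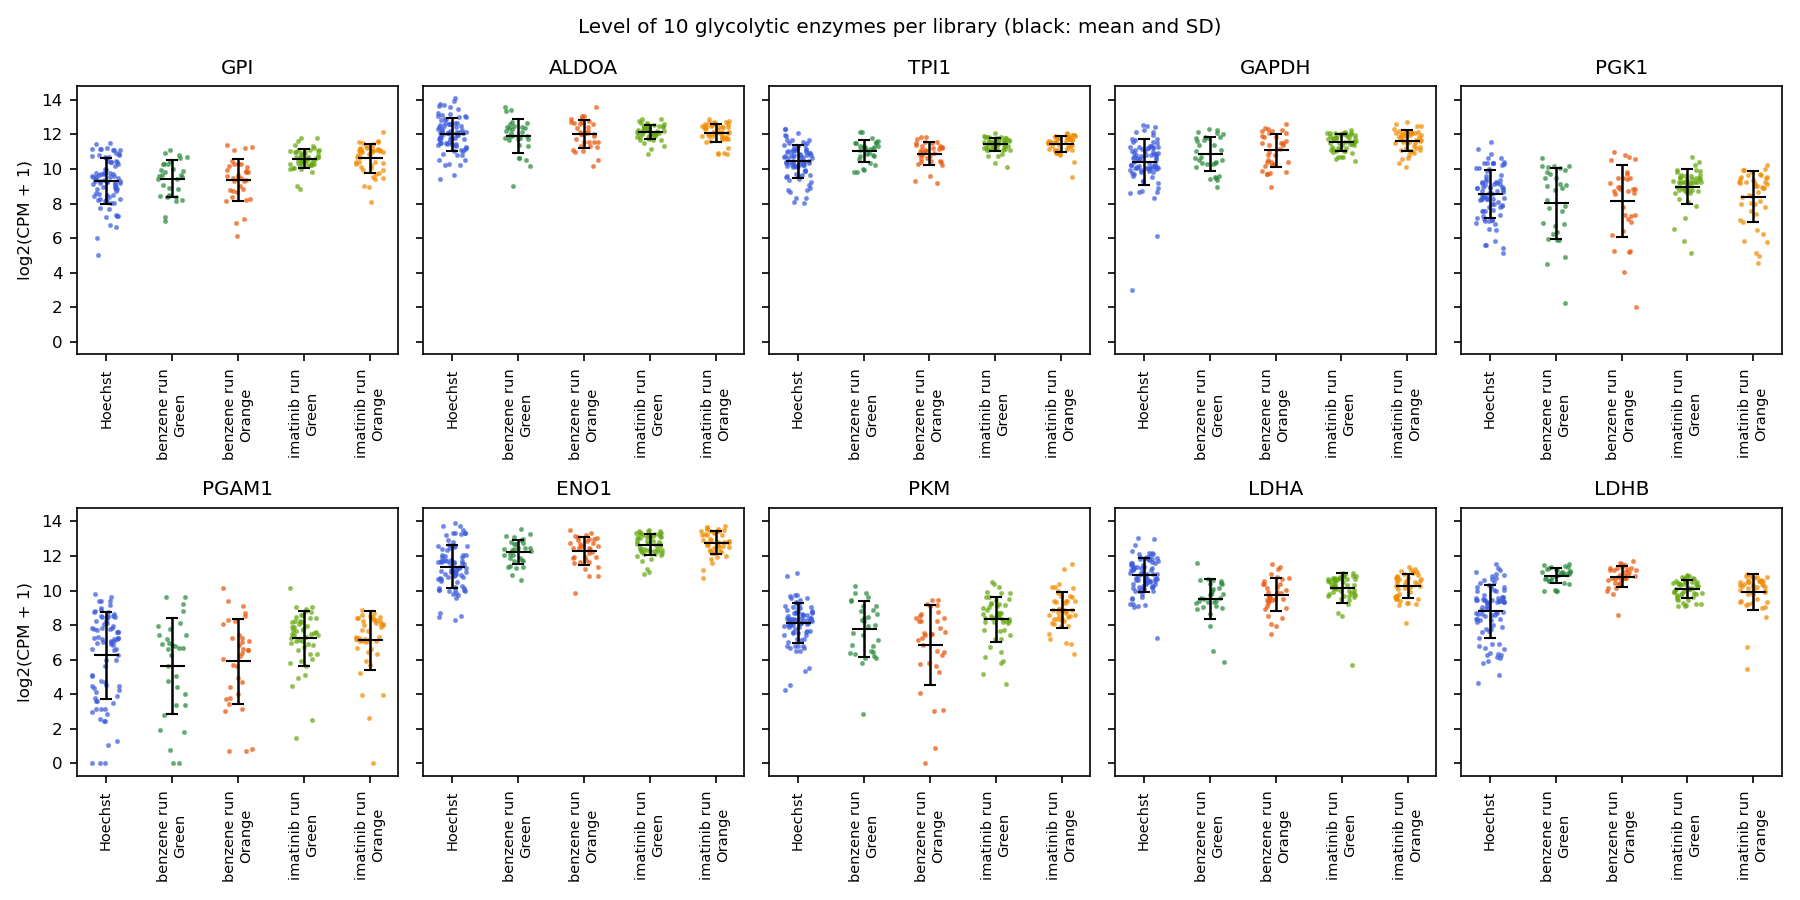
Level of each of the 10 enzymes in each library kept, as log2(CPM + 1) on the y axis, for the Hoechst run and for CellTracker Green and Orange of the benzene and imatinib runs on the x axis. Points are libraries, and black bars give the mean and the SD. LDHB sits at a mean of 8.79 in the Hoechst run and at 10.87 in benzene Green, LDHA at 10.89 and 9.52, and PGAM1 has the widest spread.

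Levels were set against transcript length to compare genes with one another. Per kilobase of the canonical transcript, the mean of log2(CPM per kilobase + 1) placed ENO1 and ALDOA first and second in the 4 CellTracker groups, and ALDOA before ENO1 in the Hoechst run. GAPDH and TPI1 followed in all 5 groups, in the reverse order in benzene Green. LDHA then came before LDHB in the Hoechst run, while LDHB came before LDHA in all 4 CellTracker groups. GPI followed them in each group, and PKM, PGK1 and PGAM1 filled the last places. Most neighbours in this order did not differ beyond the larger of their SDs over libraries. None of the 9 gaps did in the Hoechst run, 1 in benzene Green, 2 in benzene Orange, 2 in imatinib Green and 1 in imatinib Orange. The gap from LDHB to LDHA passed its SD in both benzene groups, at 2.13 in Green and 1.82 in Orange on the log2 scale.

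The 10 enzymes together took a median of 1.37% of the gene reads of a library in the Hoechst run (lowest 0.408%, highest 5.83%). The medians were 1.83% and 1.96% in Green and Orange of the benzene run, and 2.20% and 2.44% in Green and Orange of the imatinib run. On the log2 scale the medians of the summed CPM were 13.74, 14.16, 14.26, 14.43 and 14.57 in the same order, with SDs over libraries of 0.84, 0.46, 0.52, 0.35 and 0.51. The Hoechst run thus had the lowest median and the widest spread, and the groups overlapped. Its libraries 1 to 29 and 91 to 96 were mostly above the imatinib Green median of 14.43, and its libraries 31 to 90 were below it.

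The spread over libraries was smaller for 9 of the 10 enzymes than the median spread of genes with a mean of at least 100 CPM, in each run. In the Hoechst run the SD of log2(CPM + 1) had a median of 1.29 over the 10, against 1.79 over 2093 such genes and 1.60 over 14 commonly used reference genes. In the benzene run the medians were 1.02, 2.42 and 1.71, and in the imatinib run 0.74, 1.41 and 1.00. The 10 enzymes are more abundant than most of those genes. Over the 76, 100 and 91 genes of highest mean CPM the median SDs were 0.86, 0.91 and 0.60 in the 3 runs. The medians over the 10 were higher, but PGK1, PKM and PGAM1 are not among these abundant genes in any run. The enzymes among them had SDs above 0.86 in the Hoechst run and on both sides of 0.60 in the imatinib run. In the benzene run they were ENO1 (0.76), GAPDH (0.98), LDHB (0.54), TPI1 (0.64) and ALDOA (0.87), and only GAPDH was above 0.91. PGAM1 alone was above the median of genes of at least 100 CPM in each run, with SDs of 2.51, 2.60 and 1.64. TPI1 had the smallest SD of the 10 in the Hoechst run, at 0.95, and in the imatinib run, at 0.43, and LDHB in the benzene run, at 0.54. LDHB was in contrast the second most variable enzyme of the Hoechst run, with an SD of 1.55.

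Whether the runs differed in these genes was asked with the untreated libraries only, as the difference of the mean log2(CPM + 1) over libraries, which has no test because each run is 1 culture. A gene was counted as different when the means were more than 1 apart. Only the lactate dehydrogenase subunits passed this size between the Hoechst run and benzene Green. The difference, Hoechst minus benzene Green, was 1.37 for LDHA and -2.08 for LDHB. With all libraries LDHA was at 0.92 and no longer passed, and LDHB (-2.49), TPI1 (-1.45), ENO1 (-1.10) and GAPDH (-1.09) did. Of all genes 25.1% were then higher and 5.67% lower. In the libraries kept, 29.9% of all genes tested were higher in the Hoechst run by that size and 4.59% were lower. A difference like that of LDHA was thus common among genes and one like that of LDHB was not. The median of all genes was 0.57 higher in the Hoechst run, and relative to it LDHA was at 0.81 and LDHB at -2.65. Both differences were larger than the larger SD of the groups, 1.15 for LDHA and 1.55 for LDHB. The other 8 lay between -0.84 (ENO1) and 0.60 (PGAM1), and the median of the 10 was -0.002. The runs also differed in measures of the library, with a median share of mitochondrially encoded reads of 12.45% in the Hoechst run, 6.52% in benzene Green and 6.32% in imatinib Green, and of ERCC reads of 5.43%, 3.88% and 7.61%. Their part in the differences was not tested.

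Between the Hoechst run and imatinib Green, 4 enzymes were lower in the Hoechst run by more than 1, beside 21% of all genes, and 0 were higher, beside 10.1% of all genes. The 4 were LDHB at -1.31, GPI at -1.29, ENO1 at -1.26 and GAPDH at -1.12, with PGAM1 (-0.997) and TPI1 (-0.974) just inside the size counted. The larger SDs of the 2 groups were wider than the difference for those 4 genes, but not for TPI1 (0.95). The Hoechst libraries were not alike in this. In libraries 31 to 90 the 4 genes were mostly below their imatinib Green means. In libraries 1 to 29 GPI and LDHB were mostly above these means, ENO1 was on both sides and GAPDH mostly below. The labels do not say what sets these libraries apart, and it was not tested. LDHA was the only enzyme of the 10 with a higher mean in the Hoechst run, by 0.74, and the median of the 10 was -0.99 where that of all genes was -0.17. Relative to all genes, LDHA was at 0.91 and LDHB at -1.14. In reads per 10000 ERCC spike-in reads the median of the 10 was 0.06, LDHA was at 1.70 and LDHB at -0.31, so that the direction of the median depends on the scaling. With all libraries, those of few genes included, LDHA was at -0.10, so that its direction in this comparison depends on which libraries are kept.

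Between the Green groups, 2 enzymes were higher in the imatinib run by more than 1, beside 36.7% of all genes, and 0 were lower, beside 2.06%. These were PGAM1 by 1.59 and GPI by 1.18, and only for GPI was this larger than the larger SD, 1.07. For PGAM1 the ratio of the summed reads was 1.38-fold, and 2 of 31 benzene Green libraries but 0 of 50 imatinib Green libraries were at 0. LDHB alone was lower, at -0.77, a difference larger than its SD of 0.51. The median of all genes was 0.69 higher in the imatinib run. Relative to it GPI was at 0.50 and LDHB at -1.46. With ERCC scaling GPI was at -0.008, the median of the 10 at -0.57 and LDHB at -1.95, and 1 of the 10 was above 0, so the directions of GPI and of the median depend on the scaling.

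**Figure D2:**
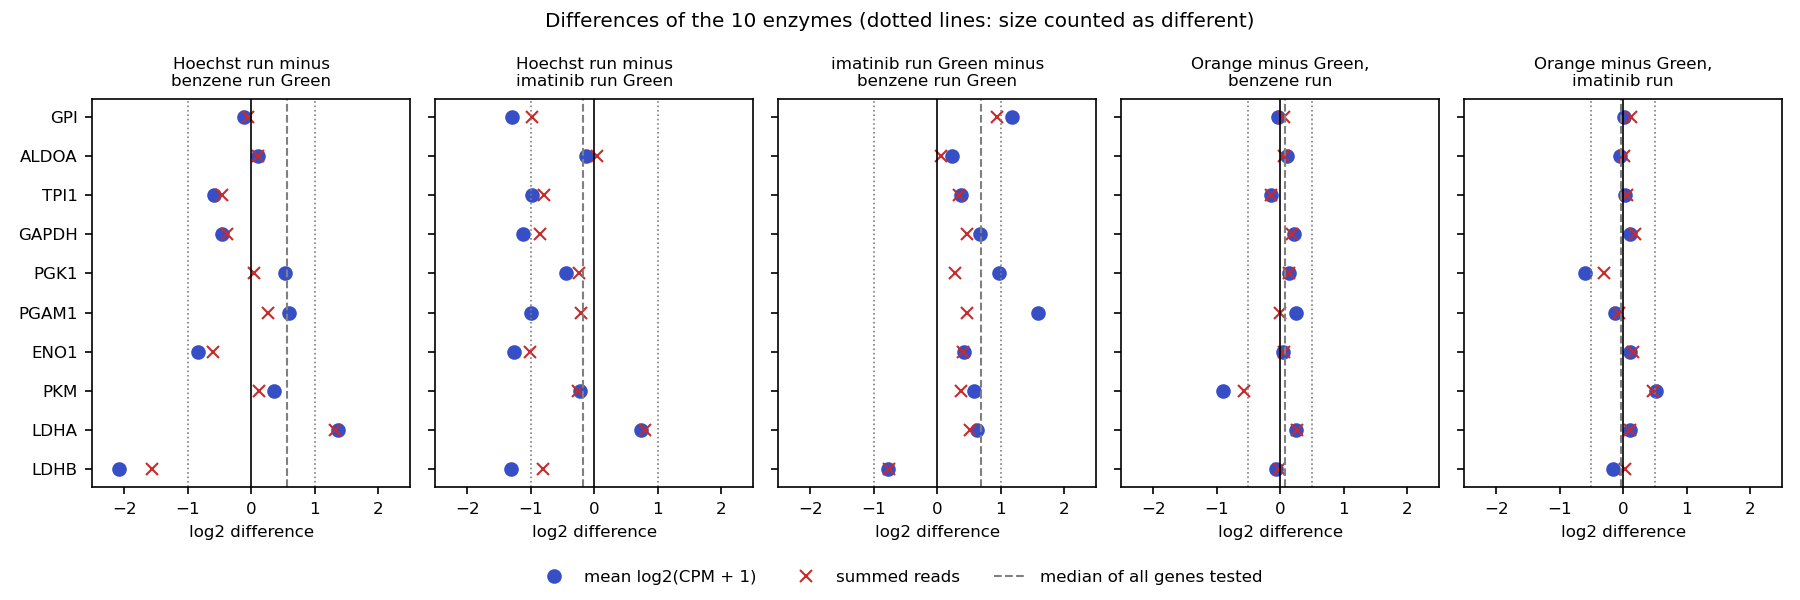
Difference on the log2 scale (x axis) for each enzyme (y axis) in 5 comparisons. Blue points are differences of the mean log2(CPM + 1) over libraries, red crosses log2 ratios of summed reads, the dashed line the median of all genes tested and the dotted lines the size counted as different. LDHA and LDHB lie on opposite sides in both comparisons of the Hoechst run, and PKM lies on opposite sides in the 2 comparisons of stains.

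The balance of the 2 lactate dehydrogenase subunits separated the runs. LDHA lies on chromosome 11 (18416107 to 18429972, plus strand) and LDHB on chromosome 12 (21788276 to 21910791, minus strand). LDHA had a median of 1956 CPM in the Hoechst run (lowest 150, highest 8279), 773 and 873 CPM in Green and Orange of the benzene run, and 1289 and 1336 CPM in the imatinib run. LDHB had a median of 549 CPM in the Hoechst run (lowest 24.4, highest 2946), 2057 and 1824 CPM in the benzene run, and 1112 and 1194 CPM in the imatinib run. LDHA was thus highest and LDHB lowest in the Hoechst run, the benzene run had the reverse, and the imatinib run lay between them for both.

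As a share of LDHA plus LDHB reads in the same library, which does not depend on the scaling, LDHA had a median of 78.6% in the Hoechst run (SD 13.2, lowest 42.1%, highest 98.4%). It was over 50% in 80 of 82 libraries there. In benzene Green the median was 30.1% (SD 14.9, lowest 2.30%, highest 70.8%), with 3 of 31 libraries over 50%, and in benzene Orange 30.8%, with 7 of 34. In imatinib Green it was 51.6% (SD 12.1, lowest 7.65%, highest 74.7%), with 32 of 50 libraries over 50%, and in imatinib Orange 54.4%, with 32 of 45. The ranges of the runs overlapped, but the lower quartile of the Hoechst run (70.2%) lay above the upper quartiles of all 4 CellTracker groups (35.7% to 62.6%), and Green and Orange differed by less than the SD in each run. Corrected for transcript length, the medians were 68.1%, 20%, 20.6%, 38.3% and 40.9% in the same order, so that LDHA was the minor subunit in the imatinib run by this measure. From summed reads the shares were 77.2% in the Hoechst run (exact 95% interval 77.04 to 77.34, counting error only), 31.60% and 36.01% in the benzene run and 52.7% and 54.1% in the imatinib run.

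Within a run the share of LDHA was only weakly related to measures of the library. Its Spearman correlation over libraries with the number of genes detected was -0.001 in the Hoechst run, -0.022 in the benzene run and 0.160 in the imatinib run. With the share of ERCC reads it was 0.146, -0.015 and -0.091, and with the mean of the other 8 enzymes -0.076, 0.125 and 0.012. With the share of mitochondrially encoded reads it was 0.186, -0.055 and 0.078. The 2 genes themselves were correlated at rho 0.452 in the Hoechst run, 0.067 in the benzene run and 0.472 in the imatinib run.

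**Figure D3:**
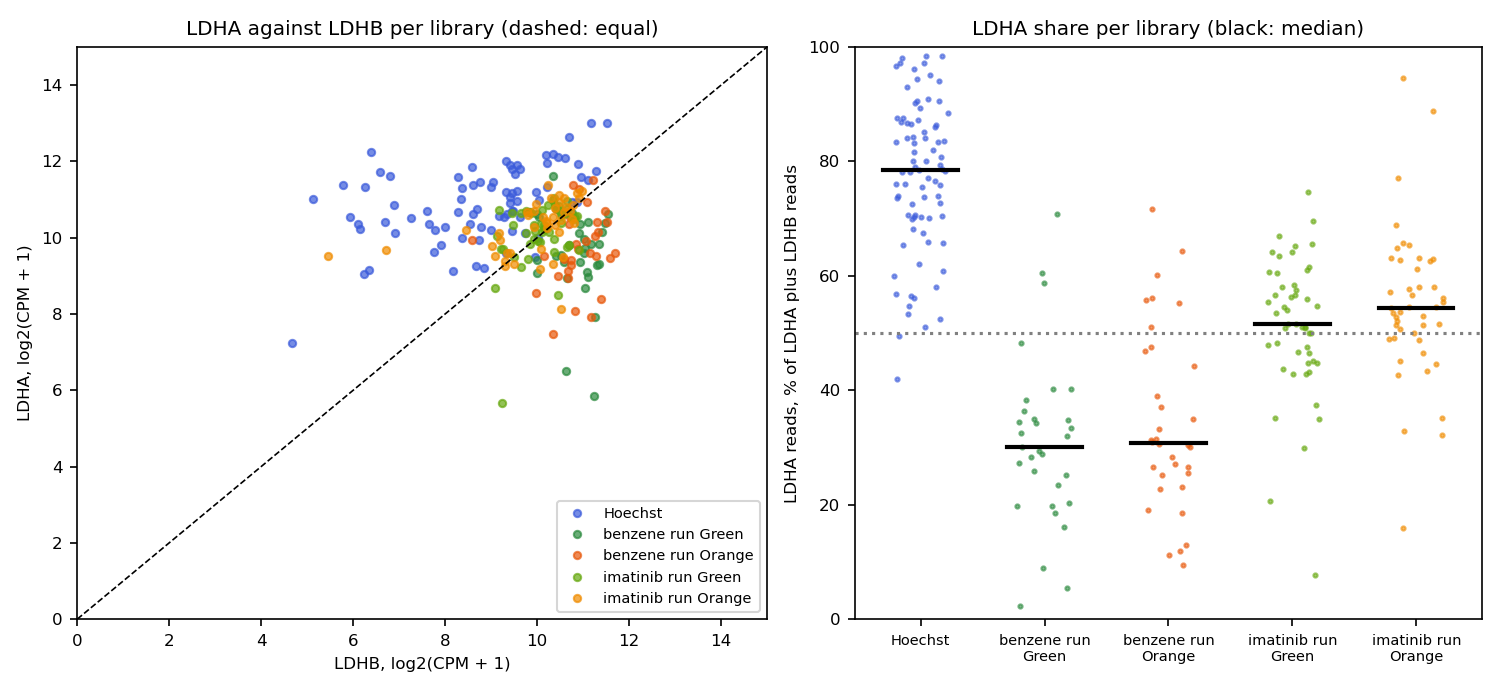
Left, LDHA (y axis) against LDHB (x axis) per library as log2(CPM + 1), with equal levels on the dashed line. Right, LDHA reads as a percentage of LDHA plus LDHB reads per library (y axis) for the 5 groups (x axis), with black bars at the medians of 78.6%, 30.1%, 30.8%, 51.6% and 54.4%. The Hoechst libraries lie almost all above the dashed line and the benzene libraries mostly below it.

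Other isozymes of the pathway also had a different balance in the Hoechst run. From summed reads per kilobase, HK2, a hexokinase that HIF-1 induces, made up 20.8% of HK1 plus HK2 in the Hoechst run against 4.995% and 8.991% in benzene Green and Orange and 9.41% and 6.18% in imatinib Green and Orange. ENO2, the neuronal enolase, made up 1.80% of ENO1 plus ENO2 in the Hoechst run and 0.102% to 0.205% in the other groups. PFKL, the liver type of phosphofructokinase, made up 36.6% of the PFK reads in the Hoechst run, 9.61% and 17.3% in the benzene run and 19.8% and 22.2% in the imatinib run. ALDOC, the brain type of aldolase, made up 5.57% of ALDOA plus ALDOC in the Hoechst run, 3.47% and 4.19% in the benzene run, and 1.40% and 0.834% in the imatinib run. ALDOA and ENO1 were thus nearly the whole of their steps in each group, and HK2, ENO2, PFKL and ALDOC had their highest shares in the Hoechst run. The muscle type PFKM had its lowest share there, 10.3% against 17.2% to 28.3% in the other groups. Isozymes known from other tissues were at or near 0, with more than 2 reads in 0 libraries for GAPDHS, HK3, LDHC, LDHAL6B, PGAM2 and PGK2.

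The other genes around the pathway were taken from lists. Of 22 other glycolytic enzymes, 12 passed the filter on low genes. In the Hoechst run 5 of these were higher than in benzene Green and 0 lower, beside 29.9% and 4.59% of all genes, with a median of 0.51 beside 0.57 for all genes. Against imatinib Green 2 were higher and 3 lower, beside 10.1% and 21% of all genes, with a median of -0.46. The 5 were HK2 (3.38), ENO2 (3.32), ALDOC (2.33), ADPGK (2.17) and PFKL (1.71). Against imatinib Green, ALDOC (2.27) and ENO2 (2.17) were higher, HK2 was 0.93 and PFKL 0.61 higher, and ADPGK was at -0.86. The 3 lower genes were PKLR, the pyruvate kinase of liver and red cells (-1.98), PFKM (-1.28) and BPGM (-1.07), which were at -0.56, -0.57 and -0.57 against benzene Green. HK2 had a median of 111 CPM in the Hoechst run, 5.71 CPM in benzene Green and 63.8 CPM in imatinib Green.

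Of 16 regulators and transporters, 10 passed the filter, and 4 were higher in the Hoechst run than in benzene Green and 3 higher than in imatinib Green, with 0 lower in either. Of all genes 29.9% and 10.1% were higher by that size, and 4.59% and 21% were lower. PFKFB4, which sets the level of fructose 2,6-bisphosphate, was 3.94 and 1.80 higher. PDK1, the kinase that shuts off pyruvate dehydrogenase, was 2.99 and 1.76 higher. SLC16A1, a lactate transporter, was at 1.30 and -0.42. The glucose transporters differed from each other. SLC2A1 was 2.64 higher than in benzene Green and at -0.63 against imatinib Green, while SLC2A3 was 0.96 and 3.28 higher. SLC2A3 had a median of 292 CPM in the Hoechst run, 143 CPM in benzene Green and 37.4 CPM in imatinib Green, and SLC2A1 96.04, 4.49 and 114 CPM. Per kilobase SLC2A3 thus made up 70.01% of the reads of the pair in the Hoechst run, 82.7% in benzene Green and 30.5% in imatinib Green.

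The list of HIF targets outside glycolysis held 15 symbols, with ERO1L an older name of ERO1A. All 14 genes were found and 11 passed the filter. In the Hoechst run 8 of the 11 were higher than in benzene Green (1 lower) and 7 were higher than in imatinib Green (0 lower). Of all genes 29.9% and 10.1% were higher, and 4.59% and 21% were lower. Both comparisons share the Hoechst libraries. Their medians were 1.88 and 1.09, beside 0.57 and -0.17 for all genes. P4HA1, a collagen prolyl hydroxylase, was 3.29 and 3.57 higher, with medians of 120 CPM in the Hoechst run, 14.2 CPM in benzene Green and 6.88 CPM in imatinib Green. VEGFA, the angiogenic growth factor, was 1.80 and 4.50 higher, with medians of 79.4, 17.1 and 1.43 CPM. BNIP3L, a receptor for mitophagy, was 1.88 and 2.42 higher. EGLN1 and EGLN3, the prolyl hydroxylases that mark HIF for destruction, were 2.27 and 1.27, and 1.99 and 1.09 higher. KDM3A, a histone demethylase, was 2.42 and 1.02 higher. MXI1, an antagonist of MYC, was at 2.41 and 0.73, and BNIP3 at 1.65 and 0.65. DDIT4, an inhibitor of mTORC1, was at -0.81 and 3.33, and ERO1A, an oxidase of the endoplasmic reticulum, at -1.46 and -0.69. ADM, CA9 and NDRG1 were too low to be tested. With log2(CPM + 10), 5 and 4 of the 11 were higher by the size counted, beside 8.04% and 3.22% of all genes. With all libraries 8 and 4 were higher, beside 25.1% and 6.03% of all genes. With ERCC scaling 8 and 8 were higher, beside 11.8% and 16.4%.

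Other lists were set beside these, and beside the 29.9% of all genes that were higher and 4.59% lower than in benzene Green, and the 10.1% higher and 21% lower than in imatinib Green. Of 7 genes for the entry of pyruvate into mitochondria, 2 were higher and 1 lower than in benzene Green and 0 higher and 2 lower than in imatinib Green. DLD, the dihydrolipoamide dehydrogenase shared by the mitochondrial keto acid dehydrogenases, was at -1.90 and -1.10. PDHX was at 2.04 and 0.78, DLAT at 1.38 and -0.19, and PDHB at -0.97 and -1.41, all parts of the pyruvate dehydrogenase complex. Of 7 genes of the pentose phosphate pathway, 1 was higher and 0 lower, and 0 higher and 1 lower, in the same order. These were RPIA (1.42 against benzene Green) and TKT (-1.70 against imatinib Green). Among the 14 reference genes 2 were higher and 0 lower, and 0 higher and 5 lower, with medians of -0.23 and -0.79. The medians of the 10 enzymes were -0.002 and -0.99.

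**Figure D4:**
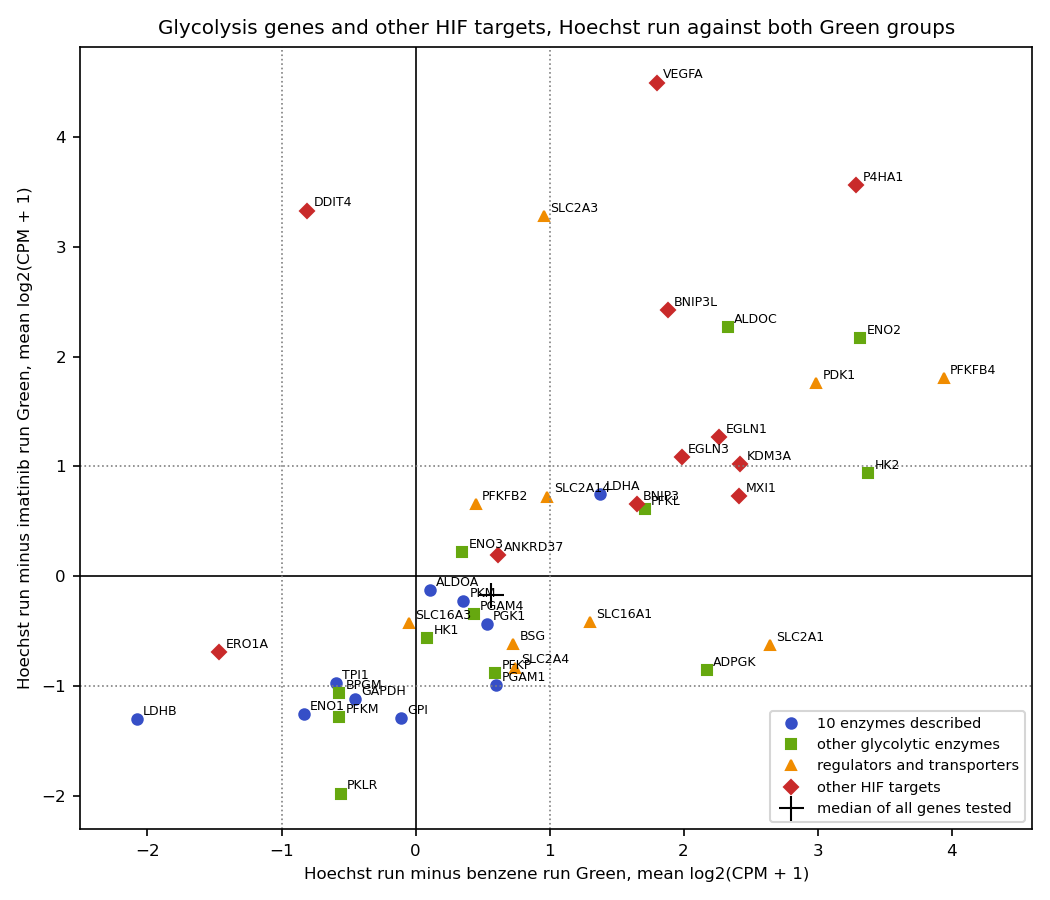
Difference of the mean log2(CPM + 1) of the Hoechst run from benzene Green (x axis) and from imatinib Green (y axis) for the genes past the filter. Symbols give the 10 enzymes, other glycolytic enzymes, regulators and transporters, and other HIF targets, the cross is the median of all genes tested and dotted lines the size counted as different. P4HA1 at 3.29 and 3.57 lies far from ENO1 at -0.84 and -1.26, and both axes use the same Hoechst libraries.

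Whether Orange libraries, which carry the drug label, differed from the Green libraries of the same run was asked with a smaller size, a difference of 0.5. In the benzene run 0 of the 10 were higher in Orange, beside 18.8% of all genes, and 1, PKM, was lower, beside 11.7%. PKM had a median of 256 CPM in Green (lowest 6.26, highest 1207) and 177 CPM in Orange (lowest 0, highest 701), a difference of -0.90. In the imatinib run 1, PKM again, was higher, beside 7.3% of all genes, and 1, PGK1, was lower, beside 11.7%. PKM had a median of 359 CPM in Green (lowest 23.3, highest 1432) and 452 CPM in Orange (lowest 78.5, highest 2924), a difference of 0.52. PGK1 had a median of 606 CPM in Green (lowest 33.8, highest 1659) and 496 CPM in Orange (lowest 22.5, highest 1223), a difference of -0.60. With libraries of at least 1000000 reads, and by the ratio of summed reads, 0 of the 10 were lower, so PGK1 no longer passed. With all libraries the difference for PKM was -0.15 in the benzene run and 0.62 in the imatinib run. In the benzene run 6 of the 10, PKM not among them, were then higher by the size counted, beside 28.7% of all genes. There 0 were lower, beside 6.015%. In the imatinib run PKM was at 0.498 with log2(CPM + 10), 0.479 with ERCC scaling and 0.462 by the ratio of summed reads, and so no longer passed. In each case the 2 stains overlapped over most of their range and the difference was smaller than the SD over libraries.

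From summed reads PKM was at 235 CPM in Orange and 347 CPM in Green of the benzene run, and at 623 CPM and 452 CPM in the imatinib run, ratios of 0.678 and 1.38. PGK1 in the imatinib run was at 494 CPM in Orange and 607 CPM in Green, a ratio of 0.814, which is a log2 ratio of -0.30. Counting error was small beside these ratios, with exact Poisson intervals for PKM in the benzene run of 231 to 240 CPM in Orange and 341 to 353 CPM in Green, but there is 1 sum per stain and run, and so no replicate. Without PKM and PGK1, the enzymes lay within 0.26 of 0 in both runs, LDHA at 0.25 and 0.11 and LDHB at -0.06 and -0.16. The medians of the 10 were 0.08 and 0.02, beside 0.07 and -0.04 for all genes. Among the 11 HIF targets, 6 were higher and 2 lower by 0.5 in Orange of the benzene run (median 0.51), beside 18.8% and 11.7% of all genes. In Orange of the imatinib run 2 were higher and 3 lower (median 0.09), beside 7.3% and 11.7%.

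The edgeR quasi-likelihood test on the 4 sums of counts, with the run as a term, asked what both Orange sums share. It called 0 of 17684 genes at a Benjamini-Hochberg adjusted p under 0.05, which is 0% of those tested, and 439 at an unadjusted p under 0.05. Of the 10 enzymes, 0 were among the latter. LDHA had a log2 ratio of Orange to Green of 0.17 and GAPDH of 0.17, with unadjusted p of 0.183 and 0.112 in the edgeR fit, and the others lay between -0.09 (PGK1) and 0.09 (ENO1). PKM, with its opposite ratios in the 2 runs, was at -0.06 (unadjusted p 0.847, edgeR). DESeq2 on the same sums called 119 genes and limma 0, with 1317 and 639 genes at an unadjusted p under 0.05, and none of the 10 was called by either. In simulated sums with the dispersion of the data the edgeR test recovered 26.5% of 200 genes changed 4-fold and 48% of 200 changed 8-fold. Beside the 53 and 96 genes recovered, 6 and 15 calls were false. With a low dispersion it recovered 97.5% at either size. Smaller changes, such as the ratios of the enzymes, were not simulated.

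The enzymes varied together over libraries, most clearly in the Hoechst run. The median Spearman correlation over their 45 pairs was 0.469 in the Hoechst run (82 libraries), 0.121 in the benzene run (65 libraries) and 0.355 in the imatinib run (95 libraries). These correlations pool libraries whose levels also shifted along the library numbers. In the Hoechst run ENO1 and the summed level were mostly highest in libraries 1 to 29 and 91 to 96, and lowest in libraries 61 to 90. The part of such shifts in the correlations was not tested. Over all pairs of genes of at least 100 CPM, which share the same libraries, depth and scaling, the medians were 0.018, 0.033 and 0.029. Of the 45 pairs, 44, 22 and 42 lay above the upper quartile of all pairs. The strongest pair was ENO1 with ALDOA in the Hoechst run (0.836) and in the benzene run (0.570), and ENO1 with GAPDH in the imatinib run (0.770), where ENO1 with ALDOA was at 0.690. The 3 pairs among ENO1, GAPDH and ALDOA were at 0.552 or above in all 3 runs. In the Hoechst run LDHA joined them, at 0.749 with ALDOA, 0.686 with ENO1 and 0.667 with GAPDH, while in the benzene run the same pairs were at 0.057, 0.145 and 0.227.

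The order of the genes by coherence differed between runs. The median correlation of PKM with the other 9 was 0.318, 0.121 and 0.225 in the Hoechst, benzene and imatinib runs, and that of GPI was 0.487, -0.005 and 0.236. The weakest pair in the benzene run was TPI1 with GPI, at -0.237, a pair at 0.570 in the Hoechst run and 0.222 in the imatinib run. PGK1 and PGAM1 were at 0.069, the lowest of the Hoechst run, and the lowest of the imatinib run was TPI1 with PGAM1 at 0.010.

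**Figure D5:**
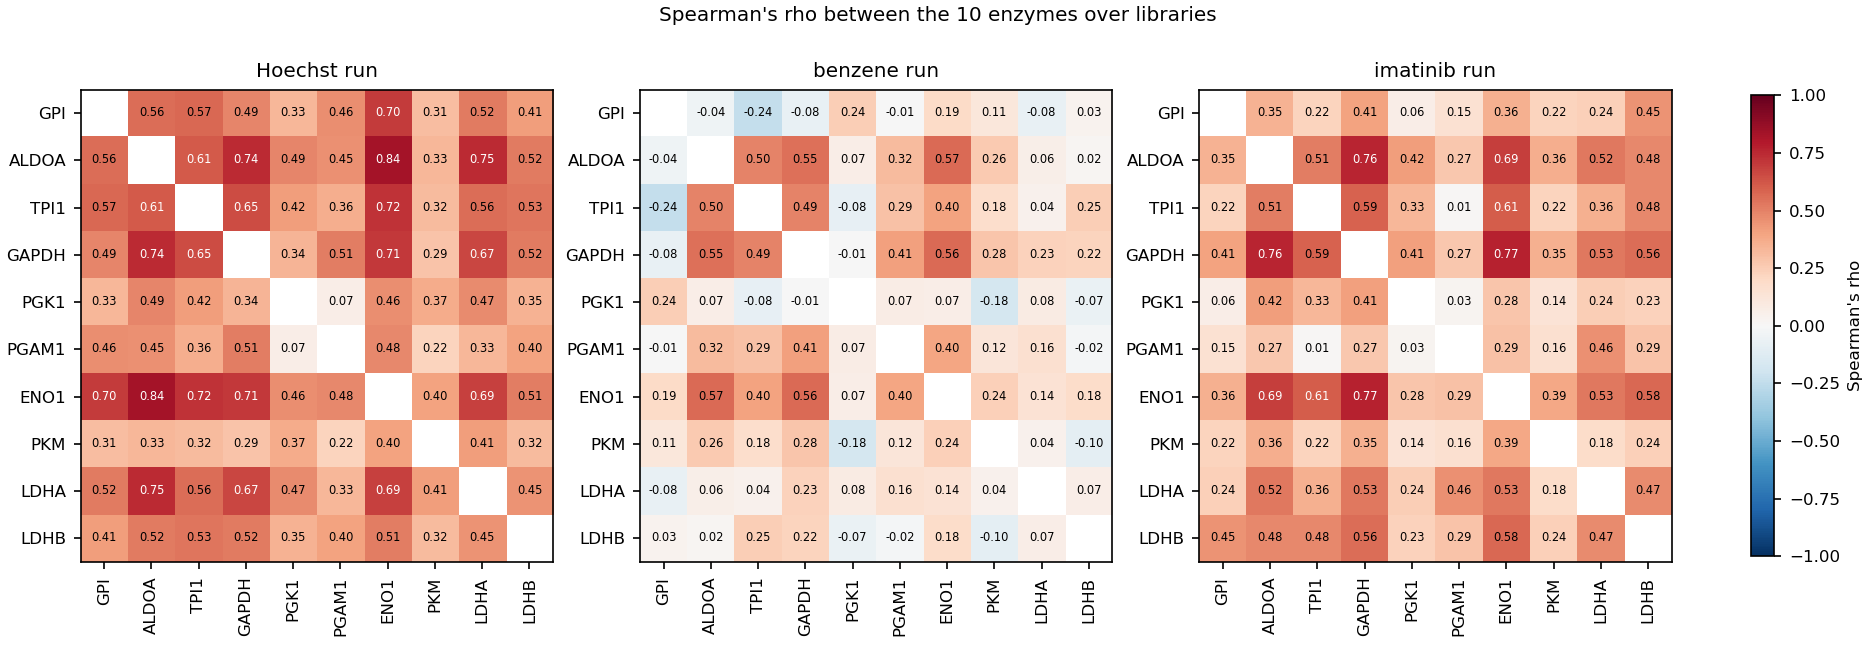
Spearman's rho between each pair of the 10 enzymes over the libraries of each run, in the order of the pathway on both axes, with the colour scale from -1 (blue) to 1 (red) and the value in each cell. The block of ALDOA, TPI1, GAPDH and ENO1 is red in each run, LDHA reaches 0.75 with ALDOA in the Hoechst run and 0.06 in the benzene run, and most cells of the benzene run are pale.

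Measures of the whole library moved with the mean level of the 10. Its correlation with the share of ERCC reads was -0.685 in the Hoechst run, -0.516 in the benzene run and -0.813 in the imatinib run. With the share of mitochondrially encoded reads it was -0.612, -0.086 and -0.629, and with the number of genes detected 0.240, 0.339 and 0.715. After a linear fit of each gene on the ERCC and mitochondrial shares, the median over the 45 pairs was 0.250, 0.092 and 0.127, with 0.009, 0.003 and 0.009 over all pairs treated alike. Of the 45 pairs, 35, 21 and 29 were then above the upper quartile of all pairs, and ENO1 with ALDOA was at 0.697, 0.440 and 0.391. The co-expression was thus smaller after the fit and above that of all pairs in each run.

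Genes outside the list were ranked by how like their level was to the mean of the 10. Among 1463 genes with at least 100 CPM in all 3 runs, the highest smallest correlation belonged to RPLP0, a ribosomal stalk protein, at 0.717 in the Hoechst run, 0.652 in the benzene run and 0.672 in the imatinib run. RPS3AP26, TUBA1B (an alpha tubulin), RPS3AP6 and EEF1A1P5 followed, TUBA1B with 0.702, 0.607 and 0.610. RPS3AP26, RPS3AP6 and EEF1A1P5 are pseudogenes whose reads can come from their abundant parents. In single runs the highest were FTL, the ferritin light chain, at 0.803 in the Hoechst run, RPLP0 in the benzene run and SLC25A5, an ADP/ATP carrier of mitochondria, at 0.801 in the imatinib run. RPS29 and NDUFA4 were among the 5 highest in the benzene run (0.636 and 0.617) and negative in the Hoechst run (-0.345 and -0.154).

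Reads on near-identical copies limit some of these values. Pseudogenes of TPI1 took 10.2% as many reads as TPI1 itself, almost all on TPI1P1, and those of PGAM1 3.01%, GAPDH 2.21% (over 64 pseudogenes) and LDHA 2.21%. For ENO1, PKM, LDHB and ALDOA they took 0.018%, 0.025%, 0.069% and 0.018%, and PGK1 had 0.801%. Exons of the canonical GAPDH transcript share 422 bases with an antisense non-coding gene, and those of GPI share 542 bases with another gene on the same strand, each with 0 reads in the count table. Levels of GAPDH and GPI are therefore uncertain where reads fell in both genes. With the pseudogene reads added, the median share of LDHA was 79.1% in the Hoechst run and 30.4% and 52.1% in benzene and imatinib Green.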

How the data were processed

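The authors deposited counts of reads per gene for the cDNA libraries. Per the labels and the methods of the study, cDNA was made with SMARTer chemistry on the C1 system and tagged with Nextera XT, reads were trimmed and mapped by HISAT2 against GRCh37 and the spike-ins, and uniquely mapped reads were counted with featureCounts (Subread 1.5.0) on Ensembl genes, without strand. There were no molecular identifiers, so intervals cover counting error only, and 4 columns of the table that matched no title were not used. A second table of normalised values was not used.

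The 63677 genes were named through a later GENCODE annotation on GRCh37, in which 55665 identifiers matched, with 99% of the reads. Libraries were kept if the top 500 genes held at most 70% of their reads. The level of a gene was the mean of log2(CPM + 1), with CPM per 1000000 reads on genes, ERCC excluded. Genes with more than 2 reads in at least 20% of the libraries of a run were compared, with 1 (runs) or 0.5 (stains) as the size counted as different and no test. Counts were summed per run and stain (4 sums) and tested with edgeR 4.0.16 (quasi-likelihood, TMM, run and stain as terms, Benjamini-Hochberg), in R 4.3.3. The alternative tools were limma 3.58.1 and DESeq2 1.42.0. The edgeR step was tested on simulated data. Other values came from Python 3.11.15 with pandas 2.3.3 and scipy 1.17.1. Promoter sequences came from the GRCh37 genome.

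The 10 enzymes and the lists (other glycolytic enzymes, regulators and transporters, pyruvate entry, pentose phosphate pathway, HIF targets, reference genes, markers of K562 and of other cells) were chosen with earlier results of these data known. Genes named from the lists were to have a mean over 100 CPM in a run, a difference past the size counted or a stated absence, and not all genes that met this are named. Genes like the enzymes were the 5 of highest correlation with the mean of the 10, per run and by the smallest value over the 3 runs. All p-values rest on the spread between sums of libraries that is left after the run and stain terms. With no replicate sums, this spread is how far the Orange to Green ratios of the CellTracker runs differ. It may be technical or come from the drugs, which differ between these runs, and the test cannot tell these apart. Single genes of 2 of the lists are not reported here.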

Additional observations from a re-analysis of the deposited data

Results flagged for a closer look

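PKM, pyruvate kinase, differed between Orange and Green libraries in opposite directions in the 2 CellTracker runs. The difference of the mean log2(CPM + 1), Orange minus Green, was -0.90 in the benzene run and 0.52 in the imatinib run. The difference between these values was not tested, since each run gives 1 value, and the drugs differ between the runs. With all libraries the benzene value was -0.15, and the imatinib value was 0.498 with log2(CPM + 10), 0.479 with ERCC scaling and 0.462 by the ratio of summed reads, all under the size of 0.5 counted as different. In both runs the difference was smaller than the SD over libraries, 2.33 in benzene Orange and 1.30 in imatinib Green.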

How the results depend on the processing

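Over 89 results and 734 alternatives, 687 values moved by less than the spread over libraries, or for counts by no more than a set fold. Another 46 moved further and 1 reversed, where a reversal needs a value past the size counted. The spread over libraries is wide, so a value that moved within it can still lose its call or change sign. The tally therefore does not measure how stable the calls are. Smaller values and medians also changed sign, among them LDHA in Hoechst minus imatinib Green, at -0.10 with all libraries. The reversed value was GPI in imatinib Green minus benzene Green, at -0.0077 in reads per 10000 ERCC reads. With that scaling the median of the 10 was 0.062 (Hoechst minus imatinib Green) and -0.57 (imatinib minus benzene Green), 1 enzyme passed the size counted in each of these and in the stains of the imatinib run, and genes past it numbered 1828, 2224 and 1428 between runs (Hoechst against benzene, Hoechst against imatinib, imatinib against benzene), 2179 between stains of the benzene run and 442 of the imatinib run. With log2(CPM + 10) these were 1206, 1403, 1549, 1294 and 457 genes, in place of 4058, 3661, 4553, 3586 and 2233, and 1 enzyme, PGK1, in the stains of the imatinib run. With all libraries 4 (LDHA no longer among them), 7 and 6 enzymes passed between runs and 6 between stains of the benzene run, and the median for Hoechst minus imatinib Green was -1.79. By the ratio of summed reads 1 enzyme passed in Hoechst against imatinib, as lower, beside 12.75% of all genes lower and 20.8% higher. In imatinib against benzene 0 passed, beside 12.6% lower and 19.3% higher. In the stains of the imatinib run 0 passed, beside 14.5% lower and 12.65% higher. By this ratio 6032 genes passed in the stains of the benzene run. With libraries of at least 1000000 reads 1 enzyme passed in the stains of the imatinib run, as higher in Orange, beside 9.71% of all genes. There 0 were lower, beside 10.5%, so PGK1 was no longer counted. Per kilobase the median share of LDHA was 38.3% and 40.9% in Green and Orange of the imatinib run. After the fit on the ERCC and mitochondrial shares, chosen after seeing the data, the median co-expression was 0.250 in the Hoechst run and 0.127 in the imatinib run. DESeq2 called 119 genes between stains where edgeR called 0. The cause of these shifts was not tested.

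No paired analysis was possible because the labels pair no libraries and the test uses 1 sum per run and stain, with the run as a term. Levels did change along the library numbers within each run, and the labels do not say what the numbers stand for. In the benzene run GAPDH was mostly lower in libraries 36 to 69 than in libraries 1 to 35. The cause of these shifts was not tested. Leaving out a run leaves 1 sum per stain and no residual degrees of freedom. Single libraries were not left out in turn, as each group holds 31 or more. Run, passage, stain, read length, K562 lot, fixed part and storage time cannot be told apart between the Hoechst and CellTracker runs, nor can stain and drug. PGAM1 and PKM had few reads in some libraries, also in the benzene run, where each library kept had at least 1040093 reads, and the cause was not tested.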
